A study of Homo sapiens with 2 samples.

Results

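Tight junctions seal the space between neighbouring epithelial cells. Claudins form their strands and set which ions pass, while occludin, tricellulin and the adhesion molecule JAM-A sit beside them in the membrane. Scaffolds such as ZO-1 and cingulin tie these membrane proteins to actin. In the airway lining this barrier keeps inhaled material out of the tissue. The 9 genes described here are the claudins CLDN1, CLDN4, CLDN7 and CLDN12, the membrane proteins OCLN (occludin), MARVELD2 (tricellulin) and F11R (JAM-A), and the scaffolds TJP1 (ZO-1) and CGN (cingulin). They were chosen by symbol, and each had 1 row among the 60619 genes of the deposited tables.

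The genes were measured by RNA sequencing in HBEC-3KT, an immortalized line of human bronchial epithelial cells. One library came from cells transduced with a pLenti6 lentivirus carrying human CBS and the other from cells given pLenti6 alone. CBS encodes cystathionine beta-synthase, which joins homocysteine to serine. The study asked how CBS expression influences Polycomb repressive complex 2. Both cultures met the virus for 4 to 8 hours, underwent selection in 10 µg/mL blasticidin and grew for 4 to 5 days on gelatin-coated plastic, a flat culture and not one differentiated at an air surface. Each group was 1 library, with 20785957 counts for CBS and 20433062 for the empty vector. No difference below has a replicate check, none could be tested between the conditions, and the intervals given are 95% intervals that cover counting error only. Fewer cells of one kind and less RNA per cell cannot be told apart in such bulk samples.

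The labels matched CBS itself, at 3669 against 280 counts, a 12.2-fold higher level with CBS (10.8 to 13.9), although its near-identical copy CBSL makes the split of reads uncertain. Of 8 epithelial markers all passed the low-count filter, and their summed level was 7071 CPM (counts scaled to library size) with CBS and 7561 with the empty vector. That sum was mostly keratins that differed in opposite directions, KRT5 at a log2 fold of -0.72 (-0.74 to -0.70), KRT18 at 0.68 (0.66 to 0.70) and KRT8 at 0.46 (0.44 to 0.49). Markers of other cells were low or at 0 but for CD68, CD14, COL1A1 and, with CBS, CDH5. The fibroblast list summed to 6.24 and 13.8 CPM, nearly all from COL1A1, with COL1A2, COL3A1, DCN and LUM at 0 counts in both libraries. COL1A1 had 132 counts under CBS and 270 under the empty vector, for a log2 fold of -1.10 (-1.44 to -0.82). In TPM it was at 3.18 against 3.88. The endothelial list summed to 4.41 and 1.31 CPM, with KDR and TEK at 0. CDH5 had 87 and 7 counts, for a log2 fold of 2.86 (2.43 to 4.89), and passed the filter only through its value with CBS. The immune list summed to 39.7 and 124.4 CPM, nearly all from CD68 and CD14, with PTPRC and CD3E at 0. CD68, a lysosomal protein, had 619 and 2259 counts, for a log2 fold of -1.96 (-2.10 to -1.84), and at 135.6 TPM with the empty vector it stood above each of the 9 junction genes. None of the 8 ciliated and secretory airway markers passed the filter. The part of such markers in the differences below was not tested.

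Some sequences near the starts of these genes are shown first, because the results below turn on CLDN1 and CLDN7. Windows of 300 bases, from 250 before to 50 after a start site, were found in RefSeq (GRCh38.p14) for 8 of the 9 genes, 13 windows in all. F11R was not among them. The E-box letters CACCTG, or CAGGTG on the other strand, are those bound by the Snail and ZEB repressors. They occurred 5 times in 1 of the 2 windows of CLDN7, and 0.094% of all 35116 windows held at least 5. The other CLDN7 window and the windows of CLDN1, CLDN4, CLDN12, CGN and MARVELD2 held none. OCLN had 1 match in its first window and 2 in its second, and TJP1 had 1 in its first of 4. At least 1 match was present in 20.6% of all windows. The 5 CLDN7 matches are given with 6 bases on each side, on the gene's strand and with the E-box in capitals. Each lies inside an exon of a CLDN7 transcript in GENCODE 29.
CLDN7 at -174, chr17:7262641-7262658: cctcctCACCTGggcaag
CLDN7 at -135, chr17:7262602-7262619: ccggttCAGGTGagtgtc
CLDN7 at -20, chr17:7262487-7262504: tatactCAGGTGcgcccc
CLDN7 at -9, chr17:7262476-7262493: gcgcccCACCTGtccgcc
CLDN7 at 5, chr17:7262462-7262479: cgcccgCACCTGctggct

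The start of CLDN1 faces that of CLDN16, a claudin of the kidney, across 65 bases that no exon covers. They are shown on the CLDN1 strand because the genes on either side of them were so unlike in level. Capitals mark the GC box GGGCGG, also read as CCGCCC, which occurs at least 2 times in 26.7% of all windows.
CLDN1-CLDN16, chr3:190322476-190322540: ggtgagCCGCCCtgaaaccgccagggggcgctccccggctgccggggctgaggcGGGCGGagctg
The core AACNNGTT, bound by grainyhead factors and its own reverse complement, was present once in the window of CGN, in no other window of these genes, and in 3.52% of all windows. A match describes the letters only.

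Levels of different genes were compared in the authors' TPM, which is scaled for transcript length. In the empty-vector library CLDN7 was highest at 100.8 TPM (96.4 to 105.3), followed by F11R at 89.6 (86.9 to 92.4) and CLDN1 at 54.1 (52.1 to 56.2). TJP1 was at 27.9 TPM, CLDN12 at 19.8, MARVELD2 at 12.2, OCLN at 9.50, CGN at 5.79 and CLDN4 at 0.34. No counting intervals of neighbours in this order overlapped. With CBS, F11R was highest at 88.6 TPM (85.8 to 91.5), while CLDN7 at 77.1 (73.1 to 81.1) and CLDN1 at 76.8 (74.4 to 79.3) had overlapping intervals. TJP1 was at 26.8 TPM, CLDN12 at 20.2, MARVELD2 at 14.0, OCLN at 9.11, CGN at 7.69 and CLDN4 at 1.58. The intervals of OCLN (8.35 to 9.92) and CGN (6.95 to 8.49) overlapped as well. The 9 genes together came to 321.8 TPM with CBS and 320.0 with the empty vector.

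**Figure D1:**
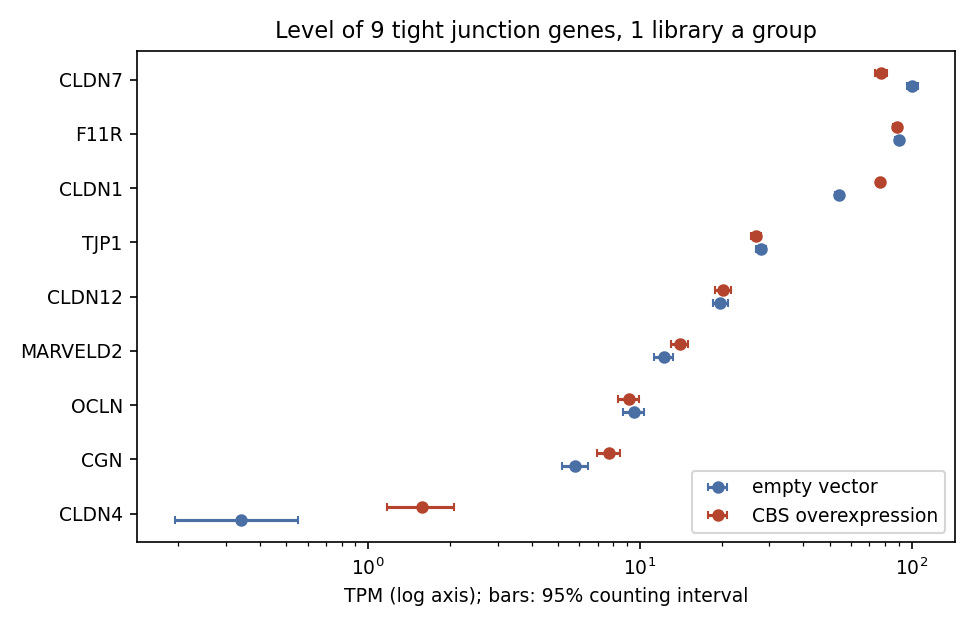
TPM of the 9 genes on a log axis, with 1 point for each library (blue, empty vector; red, CBS) and bars for the 95% counting interval. CLDN7 and CLDN1 are apart in the empty-vector library, at 100.8 and 54.1 TPM, and overlap with CBS, while CLDN4 lies lowest in both.

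Between the libraries, 3 of the 9 genes had an interval above a ratio of 1 (CLDN1, CLDN4 and CGN), 3 had one below (CLDN7, CLDN12 and F11R) and 3 had one that held 1 (OCLN, MARVELD2 and TJP1). Among all 13304 genes above the low-count filter, 31.6% had an interval above 1, 31.1% one below and 37.3% one that held 1, so these shares were close to the background. CLDN4 was the 1 gene at least 2-fold higher, and 1.41% of all genes were. Nothing is read from that count, since CLDN4 passed the filter of a mean of 1 CPM only through its value with CBS. For the same reason nothing is read from its place among the intervals above 1 or at 1.5-fold. None was at least 2-fold lower, against 5.28% of all genes. At 1.5-fold CLDN4 was again the 1 gene higher, against 7.02% of all genes, and none was lower, against 12.9%. The median log2 fold of the 9 genes was -0.03, beside 0.00 for all genes above the filter. Log2 folds compare CBS with the empty vector on TMM-scaled counts, with 5 counts added to each library in proportion to its size.

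CLDN1, a strand-forming claudin that tightens the barrier, had 3818 counts under CBS and 2702 under the empty vector. It was higher with CBS, with a log2 fold of 0.40 (0.33 to 0.47), and 15.6% of all genes had a higher fold. Its level was 76.8 against 54.1 TPM, a ratio of 1.42. The gene lies on chromosome 3 (GRCh38, 190305701 to 190322475), and CLDN16 across the gap shown above had 4 and 5 counts. Its nearest neighbours above the filter, P3H2 and IL1RAP, had log2 folds of 0.14 (-0.12 to 0.40) and 0.04 (-0.07 to 0.15).

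CLDN7, a claudin that binds the adhesion protein EpCAM, had 1436 counts under CBS and 1998 under the empty vector. It was the lowest of the 9 by fold, at -0.57 on the log2 scale (-0.67 to -0.48), and 13.5% of all genes had a lower fold. In TPM the ratio was 0.765, at 77.1 against 100.8. The gene lies on chromosome 17 (7259903 to 7263983) and its end overlaps ELP5 on the other strand by 38 bases. ELP5 and EIF5A, its nearest neighbours above the filter, were higher with CBS, at log2 folds of 0.32 (0.16 to 0.50) and 0.33 (0.30 to 0.36). A row that overlaps CLDN7 on the same strand (ENSG00000262302) had 0 counts under CBS and 9.51 under the empty vector, so reads may have been split between the rows. With both rows summed, a comparison added after seeing the data, the CLDN7 log2 fold was -0.58.

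CLDN1 and CLDN7 thus differed between the libraries in opposite directions. The count of CLDN1 relative to CLDN7 was 1.97 times as high with CBS as with the empty vector (exact conditional interval 1.81 to 2.14), a ratio that library scaling cannot change. In TPM, CLDN1 was at 0.537 of CLDN7 with the empty vector and at 0.996 of it with CBS. The log2 folds of the pair differed by 0.97, or by 0.88 on log2(TPM + 1) and 0.68 once a trend on GC content and transcript length was taken out. That trend was present across all genes, the median log2 fold being 0.12 in the fifth of genes lowest in GC content and -0.23 in the fifth highest. CLDN1 has 41.5% and CLDN7 59.6% GC in its longest transcript.

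Over 24 claudins in the table, the summed level was 179.9 TPM with CBS and 181.4 with the empty vector. CLDN7 made up 42.8% of it with CBS and 55.6% with the empty vector, and CLDN1 made up 42.7% and 29.8%. Their joint share was 85.5% and 85.4%. CLDN12 held 11.2% and 10.9%. The summed claudin level and the joint share of its leading pair were therefore close in both libraries, and the balance within the pair was not.

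**Figure D2:**
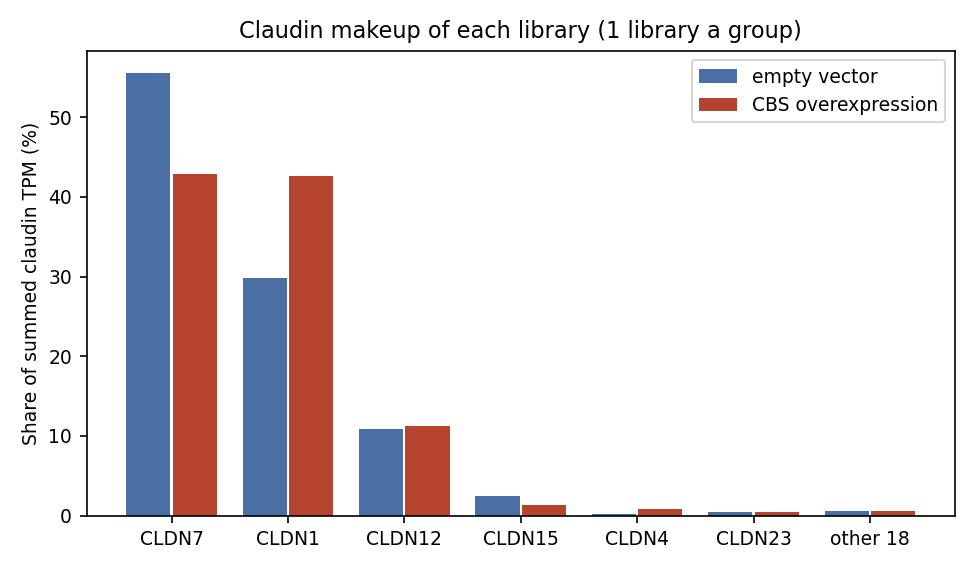
Share of the summed claudin TPM held by each claudin in each library (bars from 0; 1 library a group), with the 18 claudins below the low-count filter joined. CLDN7 goes from 55.6% with the empty vector to 42.8% with CBS and CLDN1 from 29.8% to 42.7%.

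CLDN4, a claudin that limits sodium passage, had 51 counts under CBS and 16 under the empty vector. It was higher with CBS by a ratio of 2.98 (1.67 to 5.59), or a log2 fold of 1.33 with the added counts. Its levels were 2.39 and 0.803 CPM. Its ratio in TPM was 4.65, at 1.58 against 0.34. The estimated counts per TPM of CLDN4, which follow the length of the transcripts the reads were assigned to, stood at 0.696 of the empty-vector value, relative to the median gene. Only 1.13% of all genes had a lower such ratio. It rests on 16 counts and 0.34 TPM with the empty vector, so it is uncertain. CLDN4 has 5 annotated transcripts, and its span on chromosome 7 (73799542 to 73832693) starts far upstream of the window in RefSeq. CLDN3, the claudin 29271 bases away, had 0 and 1 counts. ABHD11 and WBSCR27, the nearest genes above the filter, had log2 folds of 0.40 (0.20 to 0.61) and 0.05 (-0.37 to 0.47).

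CLDN12, a claudin that lacks the usual PDZ-binding end, had 879 counts under CBS and 952 under the empty vector. Its log2 fold was -0.21 (-0.35 to -0.08) in counts. In TPM it was slightly higher with CBS, at 20.2 against 19.8, so its direction depended on the unit. On log2(TPM + 1) it was at 0.03, which is below the median of 0.09 for all genes above the filter. CLDN12 (chromosome 7, 90383721 to 90513402) has 15 annotated transcripts, the most of the 9 genes, and overlaps GTPBP10 and CDK14 on the same strand. Those neighbours had log2 folds of 0.48 (0.29 to 0.69) and -0.26 (-0.43 to -0.10), and the split of reads among the overlapping genes is uncertain.

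Among the other membrane proteins, OCLN had 535 counts under CBS and 511 under the empty vector, or a log2 fold of -0.03 (-0.21 to 0.15). MARVELD2, which seals the corners where several cells meet and belongs to the same protein family as occludin, had 733 against 629 counts, for a log2 fold of 0.12 (-0.03 to 0.28). Neither difference exceeded counting error, although with plain library totals MARVELD2 was at 0.19 with an interval above 0 (0.04 to 0.35). The genes are neighbours on chromosome 5, MARVELD2 at 69415112 to 69444330 and OCLN at 69492292 to 69558104, with 47961 bases between them. A partial copy, OCLNP1, had 0 counts in both libraries. RAD17, on the far side of MARVELD2, had a log2 fold of -0.10 (-0.26 to 0.06), and GTF2H2C, on the far side of OCLN, one of 0.31 (0.15 to 0.47).

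F11R, whose JAM-A protein joins cells through immunoglobulin domains, had 3777 counts under CBS and 4007 under the empty vector. The log2 fold was -0.18 (-0.25 to -0.12), while the TPM values of 88.6 and 89.6 gave a ratio of 0.989. On log2(TPM + 1) F11R was at -0.02, beside a median of 0.09 for all genes above the filter. A second row overlaps most of F11R on the same strand of chromosome 1 and runs on past its start (ENSG00000270149, 160997957 to 161038962). That row had 0 counts under CBS and 88 under the empty vector. Its reads can belong to F11R, and summing the rows, again added after seeing the data, gave F11R a log2 fold of -0.21. SLAMF7, the neighbour of F11R on the other side, had a log2 fold of 0.29 (-0.40 to 1.07).

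Neither scaffold reached 1.5-fold. TJP1, which links claudins and occludin to actin, had 2297 counts under CBS and 2220 under the empty vector, or a log2 fold of -0.05 (-0.13 to 0.04). With the GC and length trend removed it was at -0.11, and the interval lay below 0. NDNL2 and the pseudogene HMGN2P5, the neighbours of TJP1 above the filter, had log2 folds of 0.35 (0.14 to 0.57) and 0.96 (0.25 to 2.19). CGN, which binds ZO-1 and holds back RhoA through the exchange factor encoded by ARHGEF2, had 396 against 318 counts. Its log2 fold was 0.22 and its ratio of 1.16 had an interval of 1.001 to 1.35, whose lower bound barely cleared 1. With upper-quartile scaling it was no longer clear of 1. POGZ and TUFT1, the neighbours of CGN on chromosome 1, had log2 folds of -0.11 (-0.23 to 0.02) and -0.22 (-0.49 to 0.03).

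**Figure D3:**
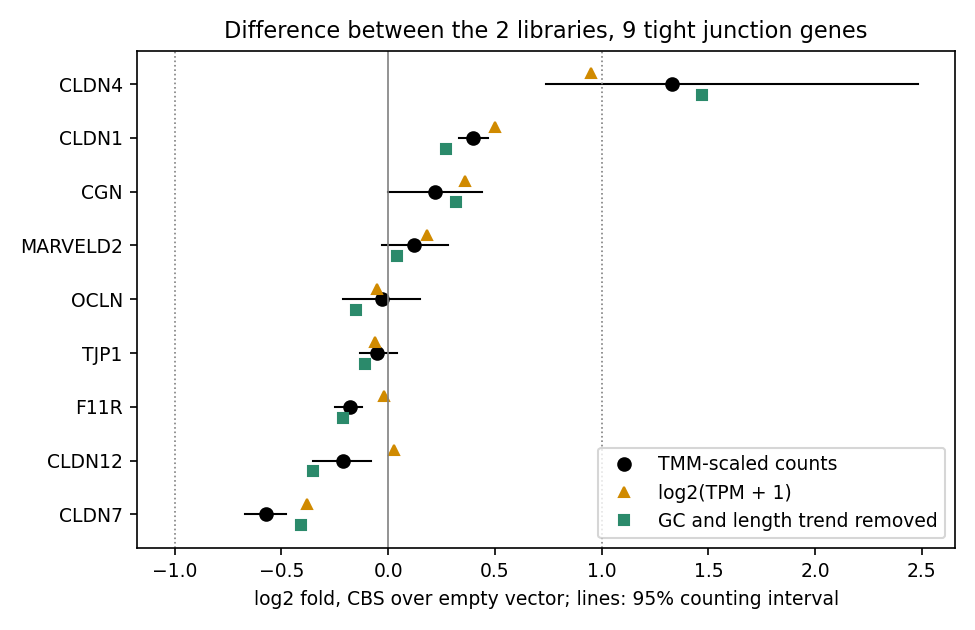
Log2 fold of CBS over empty vector for the 9 genes, from TMM-scaled counts (circles, with 95% counting intervals), log2(TPM + 1) (triangles) and counts with the GC and length trend removed (squares); dotted lines mark 2-fold. CLDN4, CLDN1 and CGN lie above 0 and CLDN7 below it by all 3 measures, while CLDN12 lies at -0.21 by counts and 0.03 by TPM.

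Other genes of the junction were read from lists grouped by role. Of 20 further claudins, 18 lay below the filter, none with more than 6 counts in a library. CLDN15, a channel-forming claudin, had 57 counts under CBS and 115 under the empty vector, or a log2 fold of -1.04 (-1.60 to -0.64), or -0.70 on log2(TPM + 1). CLDN23 had 27 and 26 counts. Of 12 other membrane proteins 8 were above the filter, and their median log2 fold was -0.19. Intervals lay above 1 for 2 of them and below 1 for 3, beside 31.6% and 31.1% of all genes. LSR, the angulin that recruits tricellulin to corners, had 2911 against 4826 counts, for a log2 fold of -0.83 (-0.89 to -0.76). CRB3, a Crumbs polarity protein, was at -0.64 (-0.92 to -0.38), VSIG1 at 0.64 (0.21 to 1.15) and the virus receptor CXADR at 0.13 (-0.07 to 0.34). LSR was thus lower by counts and by TPM (126.2 against 212.5), while the interval of its partner MARVELD2 held 1. LSR has 64.8% and MARVELD2 43.5% GC in its longest transcript, and the part of the GC trend in this contrast was not tested.

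Of 14 other scaffold and plaque genes 10 were above the filter, and their median log2 fold was 0.08. Intervals lay above 1 for 3 of them and below 1 for none, beside 31.6% and 31.1% of all genes. AMOTL2, an angiomotin, was at 0.44 (0.29 to 0.59), and MAGI3 and MAGI1, multi-PDZ scaffolds, were at 0.14 (-0.11 to 0.40) and 0.10 (-0.19 to 0.39). Polarity genes, 9 of 12 above the filter, had a median of 0.10. Their intervals were above 1 for 2 genes and below 1 for 3, beside 31.6% and 31.1% of all genes. PARD6G was at -0.43 (-0.61 to -0.27) and PRKCZ, an atypical protein kinase C, at -0.26 (-0.43 to -0.09). LIN7C was at 0.25 (0.07 to 0.43) and MPP5 (PALS1) at 0.19 (0.03 to 0.36).

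All 19 regulators of junction assembly and stability were above the filter, and their median log2 fold was -0.25, with 13 intervals below 1 and 4 above (31.1% and 31.6% of all genes). ARHGEF2, the RhoA exchange factor held by cingulin, was the 1 gene of these 19 at least 2-fold lower, beside 5.28% of all genes. It had 1296 against 2946 counts, for a log2 fold of -1.28 (-1.38 to -1.19). MYLK, the myosin light chain kinase, was at -0.91 (-1.42 to -0.52) in counts, from 67 against 122. In TPM it was at 0.96 against 1.12, or -0.11 on log2(TPM + 1). MICALL2, which acts with RAB13 in occludin traffic, was at -0.52 (-0.64 to -0.41). EPCAM, the partner of claudin-7, was higher with CBS, with 2421 against 1556 counts, for a log2 fold of 0.54 (0.45 to 0.63), opposite in direction to CLDN7.

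Transcription factors known to act on claudin genes had a median log2 fold of -0.31 over the 11 of 16 above the filter, with 7 intervals below 1 and 2 above (31.1% and 31.6% of all genes). The 3 at least 2-fold lower, beside 5.28% of all genes, were KLF4, with 127 against 395 counts and -1.70 (-2.04 to -1.44), ELF3, at -1.23 (-1.47 to -1.03), and KLF5, at -1.17 (-1.24 to -1.11). KLF5 and ELF3 were past 2-fold in counts but at -0.98 and -0.77 on log2(TPM + 1). GRHL2, a grainyhead factor of epithelial identity, had 1527 against 956 counts and was at 0.58 (0.46 to 0.70). GRHL1, GRHL3, OVOL2, SNAI1, SNAI2, ZEB1 and ZEB2 were singled out after their values were seen. The grainyhead factors GRHL1 and GRHL3 were opposite in direction to GRHL2, at -0.29 (-0.59 to -0.01) and -0.59 (-1.17 to -0.11). SNAI2, an E-box repressor, had 1438 against 1952 counts and was at -0.54 (-0.64 to -0.44), and OVOL2 was at 0.54 (0.21 to 0.91). The other Snail and ZEB genes listed, SNAI1, ZEB1 and ZEB2, lay below the filter, none with more than 11 counts in a library. Whether any of these factors bore on the claudin transcripts was not tested.

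**Figure D4:**
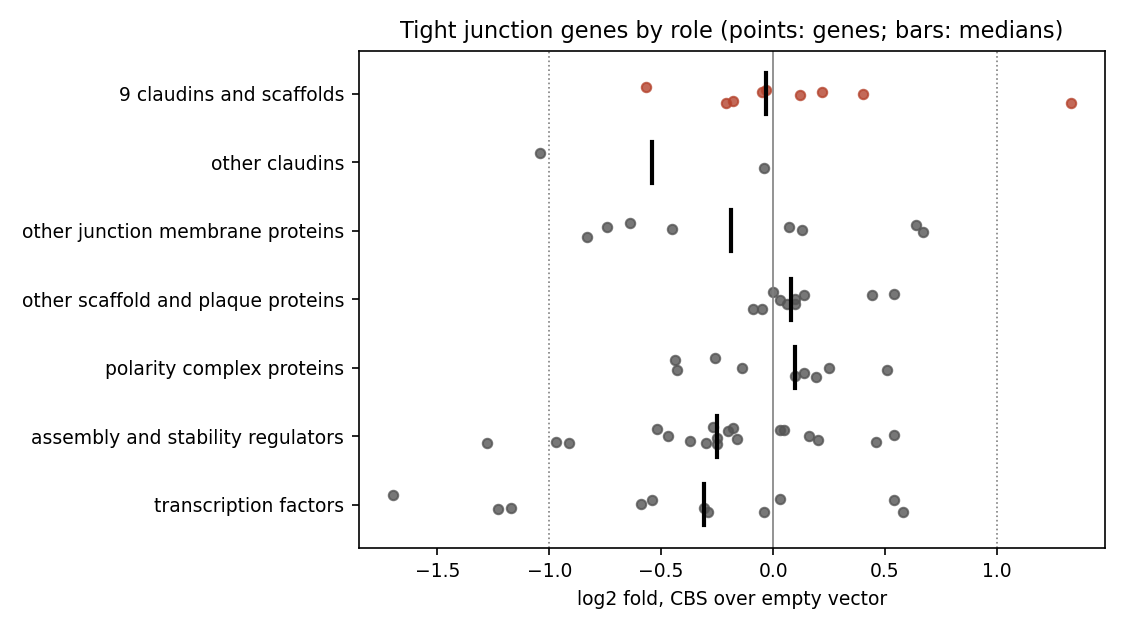
Log2 fold of CBS over empty vector for each gene above the filter, by role (points, genes; bars, list medians; dotted lines, 2-fold). The 9 claudins and scaffolds centre at -0.03, the other scaffold genes at 0.08, the assembly regulators at -0.25 and the transcription factors at -0.31.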

How the data were processed

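RNA of 2 HBEC-3KT cultures, 1 per group by the genotype in the labels, was sequenced on the DNBseq platform per the labels' protocols. Trimmomatic 0.39, STAR 2.6.1d, RSEM 1.3.2 and GRCh38 are named in the submitters' processing notes. Strandedness and the annotation release are not given in the sources used here. Per gene, the authors deposited TPM and expected counts, which are estimates and were rounded here to whole numbers. The filter kept 13304 genes, those with 10 or more counts in either library and a mean CPM of 1 or more. TMM factors (edgeR 4.0.16, no model fitted) were 1.03 for CBS and 0.975 for the empty vector. Intervals for ratios are exact Clopper-Pearson intervals at 95%, and those for TPM scale an exact Poisson interval of the count. PCR reads are not independent molecules, so intervals may be too narrow. A gene was called at 2-fold with an interval excluding 1. GC content, transcript counts and exons came from GENCODE 29, matched for 99.4% of kept genes, and the trend was removed by lowess (span 0.3, statsmodels 0.14.6). Coordinates are those of the deposited table. Named genes were the 9 genes, CBS, their nearest kept neighbours and, per list, every called gene and up to 4 with at least 100 counts and the largest fold, 1 of which is not reported here. The genes, lists and motifs were chosen with earlier results of these data known. The calculation was run on simulated Poisson counts with known folds, which hold counting error only and cannot show spread between cultures.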

Additional observations from a re-analysis of the deposited data

How the results depend on the processing

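With 1 library a group, no replicate could be left out. No paired analysis was possible because each group held 1 library. CLDN4 was the 1 gene of the 9 called at least 2-fold higher, and that count was 0 on log2(TPM + 1), with a prior count of 20 and with a filter of 100 counts, which CLDN4 did not pass. Its log2 fold ran from 0.92 to 1.93 over 10 alternatives and was above 0 in each. CLDN12 changed direction in TPM, at 0.03 with a pseudocount of 1 and at 0.03 with 0.1. The difference between CLDN1 and CLDN7 was 0.68 after removal of the GC and length trend, and the part of each was not tested. It was 0.88 to 0.97 otherwise. CLDN1 ranged from 0.27 to 0.50, CLDN7 from -0.59 to -0.38, F11R from -0.21 to -0.02 and CGN from 0.20 to 0.40. Plain library totals moved the median of all genes to 0.07 and TPM with a pseudocount of 0.1 moved it to 0.10. Over all genes, those at least 2-fold higher numbered 188, or 351 in TPM with a pseudocount of 0.1, 121 with a prior count of 20, 431 without the filter, 115 with a filter of 100 counts and 934 at 1.5-fold. Those lower numbered 703, or 377 on log2(TPM + 1), 1281 without the filter, 438 with a filter of 100 counts and 1712 at 1.5-fold. Of the 9 genes, depth limits CLDN4 most, and it limits CLDN15, CLDN23 and the 18 claudins below the filter.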
